A study of Ovis aries with 6 samples.

Results

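Low-methylated regions (LMRs) that the study listed in fetal perirenal fat and not in lamb perirenal fat numbered 31855, or 29.4% of the 108524 autosomal LMRs of the fetal list. They were chosen as the fetal LMRs on chromosomes 1 to 26 that share no base with any LMR or unmethylated region (UMR) of the lamb list, and are called fetal-only LMRs here. The data are whole-genome bisulfite sequencing of genomic DNA from the fat surrounding the kidney (perirenal adipose tissue) of 6 wild-type pure-bred Merino sheep, each a separate animal. Bisulfite leaves methylated cytosine unchanged, and the methylation level of a CpG is the percentage of its reads in which the cytosine was kept. The 3 fetuses were 132 days post conception, with term at 150 days, and their fat is labelled brown. The 3 lambs were reared with their ewes to weaning, are given as 89 days old in the sample labels and as 80 days in the text on the series design, and their fat carries the label white. The labels state that no treatment was given and that the ewes were fed to maintenance. The 3 fetal descriptions end in TV and the 3 lamb descriptions in VEH, and what these endings mark cannot be told apart from stage. Each library is DNA from whole tissue, so a change in the mixture of cells and a change of methylation within cells cannot be told apart. The tissue labels were not checked against marker genes, since no expression values were used here.

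LMRs are short, CpG-poor stretches of partial methylation in a genome that is otherwise largely methylated. They often lie at enhancers and other distal regulatory elements, where the binding of transcription factors keeps methylation below that of the surroundings. UMRs are longer, CpG-rich and nearly free of methylation, and include most promoters of broadly expressed genes. Brown fat burns fuel for heat around birth through uncoupled respiration, white fat stores lipid, and the perirenal depot of sheep is known for passing from brown to white after birth. The study's title names that transition as its subject, and the fetal-only set asks which fetal LMRs the lamb list lacks. All positions below are on the sheep build Oar_v3.1. Regions are given by position, since no gene annotation or sequence of that build was used here.

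An autosomal CpG was covered by a mean of 5.22 to 8.00 reads, depending on the animal. Except where said, levels rest on usable CpGs, those that every one of the 6 animals covered with 5 reads or more. For a class of regions, an animal's level divides all its methylated reads there by all its covering reads. At least 1 such CpG was present in 21899 fetal-only LMRs (68.7%), and 9956 had none. Values for single regions pooled over the animals of a stage use all reads instead, and existed for 31853 of the 31855 in both stages. A fetal-only LMR had a median of 120 reads in the 3 fetuses together and 121 in the 3 lambs, where a read counts once at each CpG it covers. At 45 of 120 methylated reads the level is 37.5%, with an exact binomial 95% interval of 28.8% to 46.8%. The interval covers counting error only and treats the 120 counts as independent. Since 1 read can count at several CpGs, it can be too narrow.

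Fetal-only LMRs were small and held few CpGs. Each LMR of either list held from 5 to 29 CpG positions, and no UMR held fewer than 30, so CpG number separates the 2 kinds of list. Exactly 5 CpGs, the fewest any listed LMR had, were found in 42.3% of fetal-only LMRs, against 14.5% of the 74702 fetal LMRs that share a base with a lamb LMR (shared LMRs). The LMRs listed in lambs only, 26223 regions chosen by the mirror rule, had 5 CpGs in 43.8%. The median was 6 CpGs in fetal-only LMRs, 9 in shared LMRs, 6 in lamb-only LMRs and 7 over all fetal LMRs. At least 10 CpGs were present in 11.8% of fetal-only and in 43.1% of shared LMRs, and at least 20 in 1.11% and 9.55%.

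**Figure D1:**
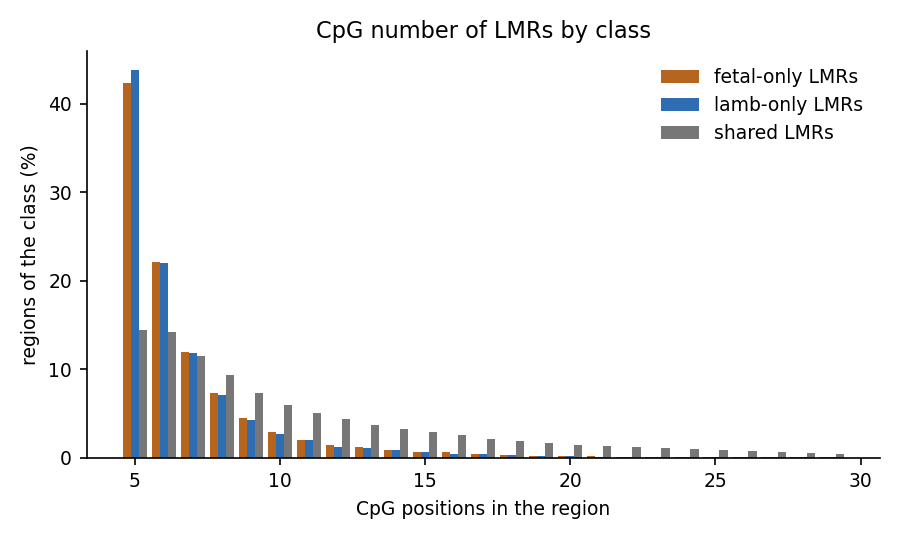
Share of the regions of each class (vertical axis, %) by the number of CpG positions in the region (horizontal axis), for fetal-only, lamb-only and shared LMRs. The bar at 5 CpGs stands at 42.3% for fetal-only and 43.8% for lamb-only LMRs and at 14.5% for shared LMRs, whose bars reach further to the right.

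In length the classes were closer. Fetal-only LMRs had a median of 536 bases (quartiles 287 and 1015), shared LMRs 613 bases (385 and 957) and lamb-only LMRs 562 bases (300 and 1029). Their CpGs were therefore sparser, with a median of 1.17 CpGs per 100 bases against 1.60 in shared and 1.10 in lamb-only LMRs. Both extremes of length were more frequent among fetal-only than shared LMRs, with 3.1% against 1.04% under 100 bases and 7.59% against 5.07% over 2000 bases. The lists hold 1 set per stage, so these counts and medians carry no replicate error and have no test. Seen from the fetal list, the share that was fetal-only went from 55.2% of LMRs with 5 CpGs to 39.6% with 6, 26.1% with 7 to 9, 13.5% with 10 to 14 and 6.22% with 15 to 29. The share was 41.2% of the LMRs with under 1 CpG per 100 bases, 23.1% at 1 to 3 and 26.8% above 3.

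Fetal-only LMRs lay further from UMRs than shared LMRs did. The median distance to the nearest fetal UMR was 55341 bases (quartiles 15107 and 184762) in fetal-only LMRs, 34088 bases in shared LMRs and 58547 bases in lamb-only LMRs. A fetal UMR lay within 2 kb of 5.16% of fetal-only and 6.23% of shared LMRs, and within 10 kb of 18.9% and 24.6%. It lay over 100 kb away for 37.5% and 26%. The fetal-only share of fetal LMRs was 23.9% within 2 kb of a UMR, 23.7% at 2 to 10 kb, 25.9% at 10 to 50 kb, 31.0% at 50 to 200 kb and 41.4% beyond 200 kb. CpG number moves with this distance. Among fetal LMRs with exactly 5 CpGs the share was 52.5% within 10 kb of a UMR, 53.7% at 10 to 100 kb and 58.5% beyond. Among those with 10 to 14 CpGs it was 11.5%, 11.4% and 20.1%, so at a fixed CpG number the shares up to 100 kb differed by little and the share beyond 100 kb was the highest.

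**Figure D2:**
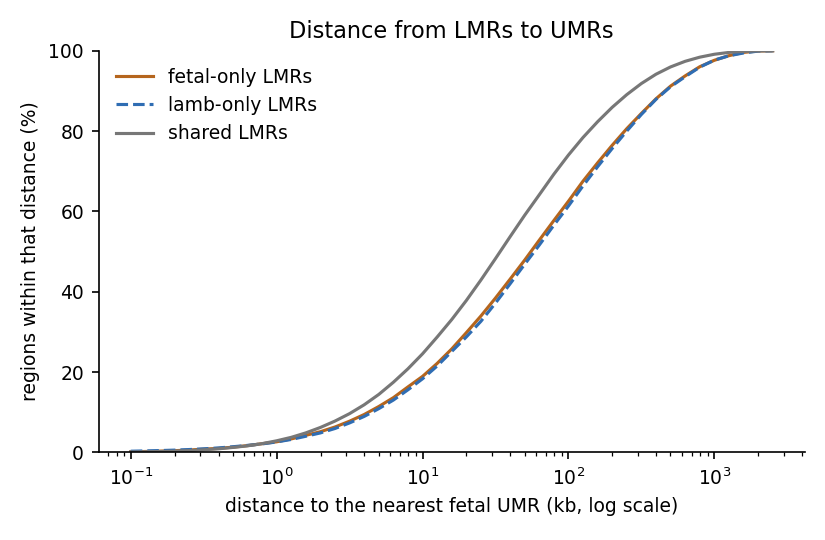
Cumulative share of regions (vertical axis, %) whose nearest fetal UMR lies within a distance (horizontal axis, kb, log scale), for fetal-only, lamb-only and shared LMRs. The fetal-only and lamb-only curves run together and below the shared curve, at 18.9%, 18.3% and 24.6% within 10 kb.

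The median distance to the nearest other fetal-only LMR was 19104 bases, and 18.7% had one within 5 kb. Among shared LMRs, which are more numerous, the median distance to another of the same class was 6385 bases. The lamb list holds 103520 LMRs and 21199 UMRs, and the nearest of these lay at a median of 5006 bases from a fetal-only LMR, within 1 kb for 15.1%. These distances depend on how many regions each list holds and are not compared. All 26 autosomes carried them, from 10.1 per Mb on chromosome 8 to 21.6 per Mb on chromosome 24. The share of fetal LMRs that were fetal-only was lowest on chromosome 11, at 24.5%, and on chromosome 20, at 24.7%. It was highest on chromosome 6, at 35.3%, and on chromosome 10, at 33.9%. Chromosome 11 also had 78.6 fetal LMRs per Mb against 30.2 on chromosome 6. Within 5 Mb of the last CpG of a chromosome the share was 27%, against 29.6% elsewhere. Within the first 5 Mb it was 30.7%, against 29.2% elsewhere.

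Inside the fetal-only LMRs, summed over 54155 CpGs, the level was 37.8%, 40.1% and 37.7% in fetuses 1 to 3 and 48.6%, 50.6% and 48.1% in lambs 1 to 3. The lambs stood above the fetuses without overlap, by 10.6 percentage points. Over CpGs with at least 10 reads in each animal the difference was 5.05 points. Fewer CpGs lie behind that value. At 10 reads 26 fetal-only LMRs had 3 or more such CpGs, against 8546 at 5 reads. The lists that chose the fetal-only LMRs come from the same animals. A low level in fetal tissue and its absence from the lamb list were the rule itself, so the stage difference is a description and has no test. In the lamb-only LMRs the mean levels were 48.7% ± 0.636 in fetuses and 39.4% ± 0.511 in lambs (SD, n = 3 each), a gap of nearly the same size turned round.

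A dip against the surroundings was present in the lambs too. The flank of a region is taken here as the CpGs from 500 to 2000 bases outside its edges that lie in no listed region, and the dip is the flank level minus the level inside. In fetuses 1 to 3 the dip of the fetal-only LMRs was 40.2, 38.3 and 40.6 points, and in lambs 1 to 3 it was 29.3, 29.2 and 30.8 points. The mean dip was 39.7 ± 1.24 points in fetuses and 29.8 ± 0.930 in lambs (SD, n = 3 each). The lamb dip minus the fetal dip was -9.94 points, and -4.43 points over CpGs with at least 10 reads in each animal. Shared LMRs were deeper in both stages, at 51.6 ± 0.702 and 49.4 ± 0.896 points. The lamb-only LMRs were the mirror, with a dip of 29.7 ± 0.607 points in fetuses and 39.4 ± 0.492 in lambs (SD, n = 3 each). Around the centre of the fetal-only LMRs, averaged over bins of 200 bases, the fetal mean went from 73.4% at 900 bases before the centre to 45.4% just after it. The lamb mean went from 74.2% to 54.3% at the same places. Such bins run from the centre, not the edges, and a central one held a mean of 3.16 CpG positions per region, usable or not. At 3900 bases after the centre the fetal mean was 71.4%, against 78.2% in the fetal flank. The drop across the bins is thus not the dip given above. It was narrow in both stages, since 500 bases after the centre the fetal mean was back at 71.1% and the lamb mean at 72.8%.

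**Figure D3:**
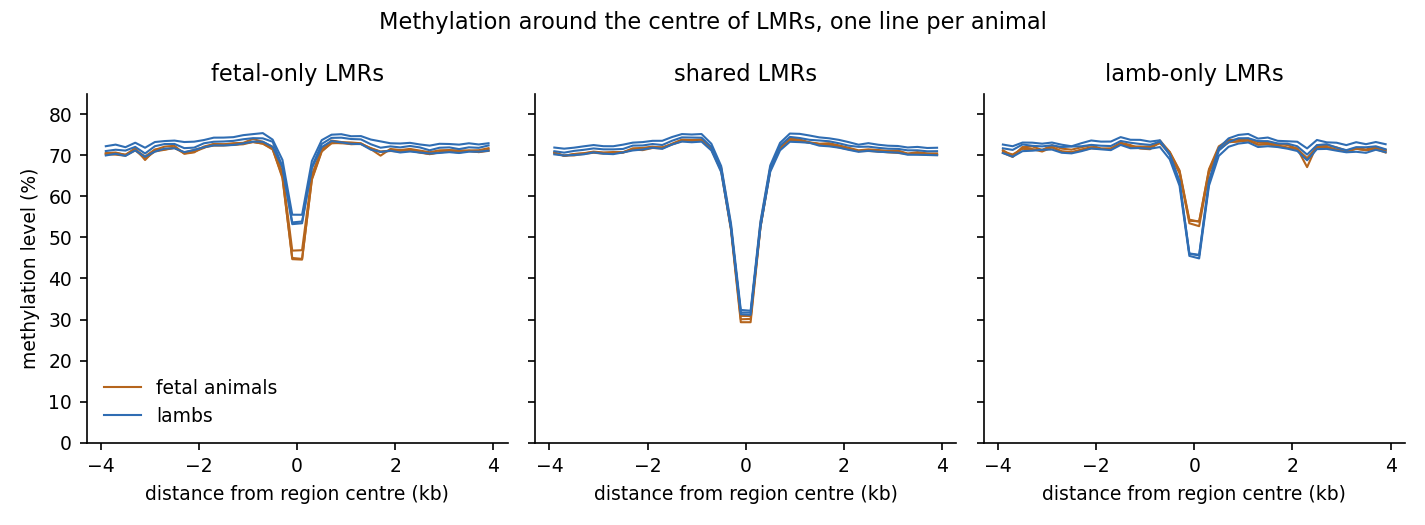
Methylation level (vertical axis, %) by distance from the region centre (horizontal axis, kb, bins of 200 bases), 1 line per animal, for fetal-only, shared and lamb-only LMRs. At fetal-only LMRs the fetal lines reach about 45% and the lamb lines about 54%, at lamb-only LMRs the order is turned, and at shared LMRs both stages fall to about 30%.

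Taken region by region, few fetal-only LMRs were low in the fetuses and fully methylated in the lambs. The pooled level had a median of 37.5% in fetal tissue (quartiles 32.7 and 41.7) and of 48.4% in lamb tissue (42.7 and 54.0). In 56.5% of the regions the pooled lamb level was itself under 50%, and in 44.3% it lay between 45% and 55%. The lamb level was at least 70% in 1.19% (378 regions), against 0.353% of all fetal LMRs. At most 25% in fetal and at least 60% in lamb tissue were 39 regions (0.122%), against 0.0387% of all fetal LMRs. The difference between the pooled levels had a median of 11.0 points (quartiles 6.06 and 16.4). It was at least 30 points in 587 regions (1.84%) and under 5 points in either direction in 19.2%. Over all fetal LMRs these shares were 0.558% and 43.4%, and 85.7% had a pooled lamb level under 50%. Of the lamb-only LMRs, 57.6% had a pooled fetal level under 50%. The fetal-only share of fetal LMRs went from 2.09% of those under 10% in fetal tissue to 54.0% of those at 40% to 50% and 75.1% of those at 50% or more. The fetal level is a value the lists used, so this is a description of the listing.

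Where a flank could be measured, the dip of a single region had a median of 38.3 points in fetal and 27.3 points in lamb tissue. It was at least 20 points in 92.9% of fetal-only LMRs in fetal tissue and still in 72.4% in lambs. It was under 10 points in lambs in 8.63%. In 82.3% the lamb dip was no less than 0.5 times the fetal dip. Over all fetal LMRs the lamb dip was at least 20 points in 89.6%. In lamb-only LMRs the fetal dip was at least 20 points in 72.3%.

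**Figure D4:**
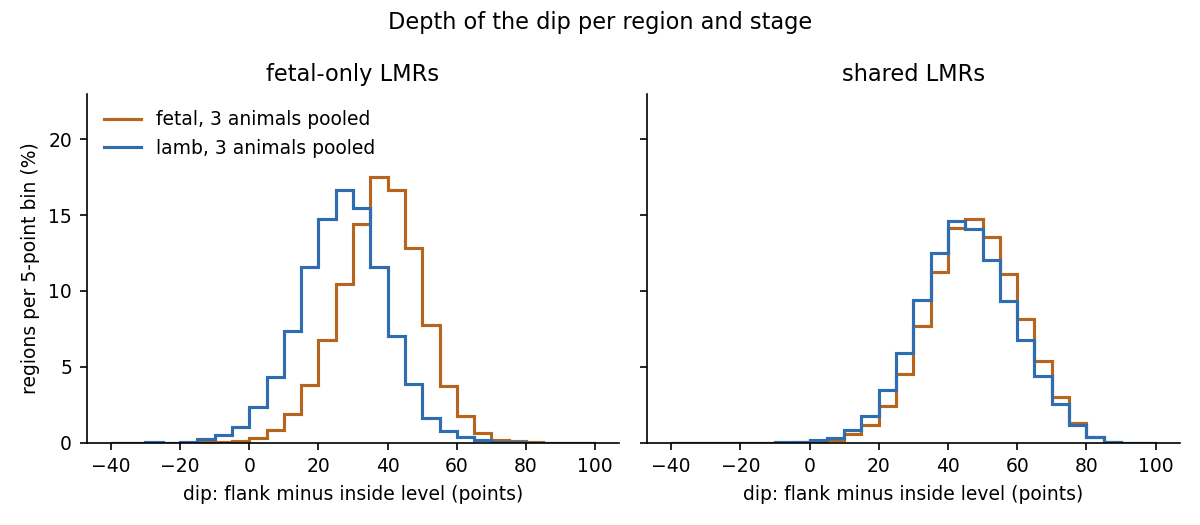
Distribution over regions of the dip, the flank level minus the inside level in percentage points (horizontal axis, bins of 5 points, values outside -40 to 100 put in the end bins), as a share of regions (vertical axis, %), for fetal-only and shared LMRs, with the 3 animals of a stage pooled. In fetal-only LMRs the lamb distribution, median 27.3 points, lies to the left of the fetal one, median 38.3 points, and overlaps it widely.

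Single animals were scored where each of the 6 had at least 10 reads in the region, which held for 30766 fetal-only LMRs. Fetuses 1 to 3 were under 50% in 90.2%, 82.4% and 88.5% of these, and lambs 1 to 3 in 56.7%, 48.3% and 56.1%. Fetus 2 and lamb 2 were under 50% least often in their stages. They had the lowest coverage of their stages and also the highest level inside fetal-only LMRs, at 40.1% and 50.6%. The cause was not tested. All 3 fetuses were under 50% in 66.0% of the regions, and all 3 lambs in 21.5%. A clean split, with each fetus under 50% and each lamb at or above it, was seen in 2101 regions, or 6.83%, against 2.09% of all fetal LMRs and 0.169% of shared LMRs. The rule used this contrast, so nothing is read from the difference. The SD between the animals of a stage in a single region had a median of 8.22 points in fetal and 8.86 points in lamb animals, not far below the median difference between the stages. In shared LMRs, which carry more reads, these medians were 6.09 and 6.48 points. Each such SD holds the counting error of an animal's reads beside any spread between animals, and the parts were not separated.

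Among fetal-only LMRs the gap between the stages was wider where there were more CpGs. With 5 CpGs the level was 37.5% ± 1.01 in fetuses and 46.4% ± 1.12 in lambs, 8.88 points apart. With 7 to 9 CpGs it was 38.7% ± 1.56 and 50.3% ± 1.46, and with 15 to 29 CpGs it was 40.8% ± 1.74 and 53.6% ± 1.30 (SD, n = 3 each), 12.8 points apart. From the first to the last of these classes the lamb level differed by more than the fetal level did. Density showed the same order, with 8.31 points under 1 CpG per 100 bases, 11.1 points at 1 to 3 and 13.6 points above 3. By distance to the nearest fetal UMR the gap was 11.8 points within 2 kb and 9.13 points beyond 200 kb. The SD between the animals of a stage was 0.987 to 1.74 points in these classes. These differences were fixed in direction by the choice of regions and were not tested. A wider gap with more CpGs was not particular to fetal-only LMRs. In lamb-only LMRs, lamb minus fetal was -7.64 points with 5 CpGs and -11.4 points with 15 to 29. In shared LMRs it was 0.125 and 3.25 points, also untested.

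**Figure D5:**
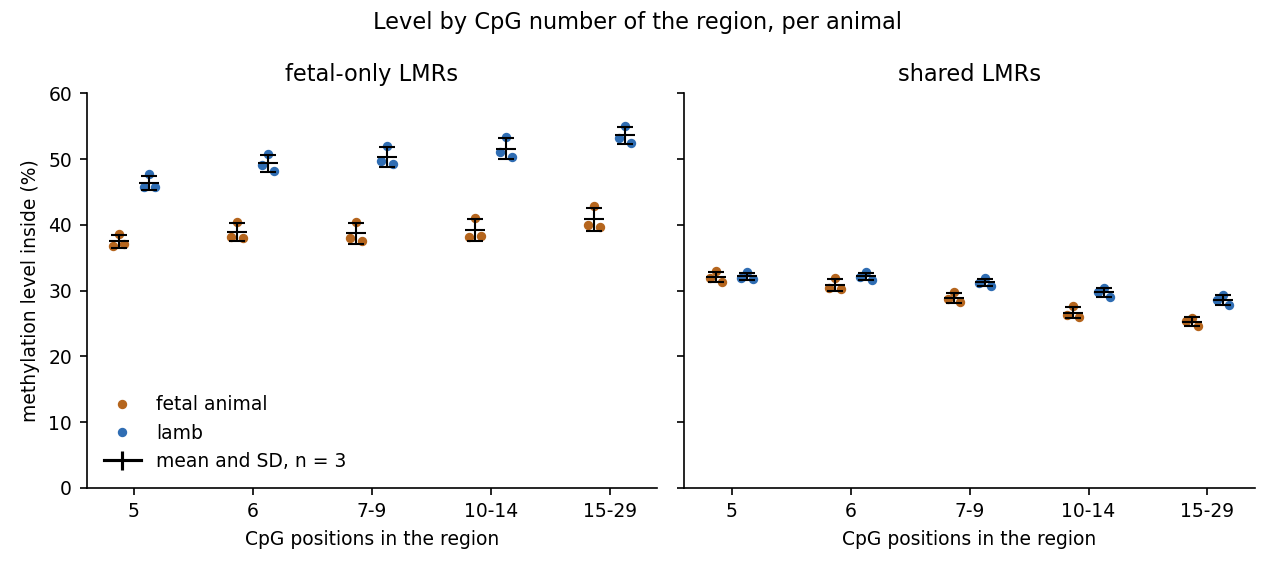
Methylation level inside the regions (vertical axis, %) by the number of CpG positions (horizontal axis), for fetal-only and shared LMRs, with a point per animal and bars for the mean and SD of 3 animals. In fetal-only LMRs the lambs stand above the fetuses in each class, by 8.88 points at 5 CpGs and 12.8 points at 15 to 29. In shared LMRs the levels of both stages are lower where there are more CpGs. There too the gap is wider with more CpGs, at 0.125 and 3.25 points in the same classes.

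Flanks were not part of the rule and were tested, but they leave out every region listed from these same animals. Tests of flank levels, here and against shared LMRs, are thus not fully independent of the lists. The flank level of the fetal-only LMRs, over 284852 CpGs, was 78.0%, 78.4% and 78.3% in fetuses 1 to 3 and 77.8%, 79.8% and 79.0% in lambs 1 to 3. Lamb 1 was below each fetus and lambs 2 and 3 above, and the difference of 0.615 points was within the spread of the lambs (exact permutation test, two-sided, p = 0.4, where 3 against 3 allows no less than 0.1). It was 0.20 points without lamb 2 (exact permutation p = 0.8) and 1.15 points without lamb 1 (exact permutation p = 0.1). Closer to the regions the stages differed by more. From 0 to 250 bases outside the edges the level was 69.7% ± 0.416 in fetuses and 72.0% ± 1.01 in lambs (SD, n = 3 each), 2.30 points apart and without overlap, and from 250 to 500 bases the gap was 0.802 points. These nearest CpGs border the chosen regions, so they were given as values only.

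The surroundings of fetal-only LMRs were slightly less methylated than those of shared LMRs. The flank level was lower in each of the 6 animals, at a mean difference of -0.582 ± 0.0871 points (SD, n = 6), between -0.721 in fetus 1 and -0.472 in lamb 2. An exact sign-flip permutation test over the animals, two-sided, gave p = 0.0313, the smallest that 6 animals allow. With at least 10 reads in each animal the sign was the opposite, at 2.43 points. The trait was not particular to fetal-only LMRs. Flanks of lamb-only LMRs had means of 78.4% in fetuses and 78.8% in lambs, against 78.9% and 79.4% at shared LMRs. That comparison was not tested.

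Shared LMRs near fetal-only ones were higher in lambs, as were shared LMRs elsewhere. Their levels also shaped the lists that sorted them, and the fetal list set their bounds, so the values are a description with no test. Of the shared LMRs, 24292 lay within 10 kb of a fetal-only LMR and 50410 did not. In the near ones the level was 28.0%, 29% and 27.4% in fetuses 1 to 3 and 31.0%, 31.6% and 30.4% in lambs 1 to 3, without overlap and 2.89 points apart. In the others the means were 26.9% ± 0.688 and 29.5% ± 0.669 (SD, n = 3 each), 2.57 points apart. The gap between near and other shared LMRs was 1.21 ± 0.167 points in fetuses and 1.53 ± 0.0777 in lambs (SD, n = 3 each), 0.324 points apart. Over the bases that both lists hold, the stage difference in the near ones was 1.54 points, and the gaps were 0.13 points apart.

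Read depth in the fetal-only LMRs was close to the genome's. Reads per CpG, relative to the autosomal mean of the same animal, were 1.01, 0.985 and 1.01 in fetuses 1 to 3 and 1.02, 1.03 and 1.03 in lambs 1 to 3. The lambs were higher without overlap, by 0.0267 (exact permutation p = 0.1, two-sided). The fewest reads in a fetal-only LMR were 27 in fetal and 0 in lamb tissue. In lamb-only LMRs they were 9 in fetal and 29 in lamb tissue. The lists may thus have filtered on reads, so the coverage tests given here are not independent of the rule and decide nothing. With the lists compared by 50% reciprocal overlap, which puts 43226 regions in the set, the difference was 0.00305 (exact permutation p = 0.8). In shared LMRs relative coverage was higher in both stages, at 1.17 ± 0.0335 and 1.13 ± 0.0105 (SD, n = 3 each). Fetal-only LMRs were lower than shared ones in 6 of 6 animals, at a mean difference of -0.134 ± 0.0381 (SD, n = 6, exact sign-flip permutation p = 0.0313, the smallest that 6 animals allow). The lower number of reads per region in fetal-only LMRs, 120 against 191 in fetal tissue, moves with these counts of CpGs and reads, and its part in a region's absence from the lamb list was not tested.

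Regions on either side of the rule's limit were much alike. The 560 fetal-only LMRs within 100 bases of a lamb-listed region were at 38.7% ± 1.04 in fetuses and 49.8% ± 0.457 in lambs. The 510 fetal LMRs over 200 bases long that shared only 1 to 100 bases with lamb regions, and so fell outside the set, were at 37.6% ± 1.17 and 47.6% ± 0.707 (SD, n = 3 each). The 10030 fetal-only LMRs over 10 kb from any lamb-listed region were at 39.0% ± 1.23 and 48.8% ± 1.28.

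Single regions were tested together with all UMRs and LMRs of both lists, merged to 78994 regions with at least 3 usable CpGs, and 8546 fetal-only LMRs were among them. The test was a quasi-binomial model of lamb against fetal reads whose dispersion limma moderated. Calls needed 10 points or more between the stages and an adjusted p under 0.05. They fell on 2 fetal-only LMRs, both higher in lambs, while 0.00380% of all regions tested were called and 0.00253% were called with the lambs higher. Every lamb stood above every fetus in 2246 fetal-only LMRs (26.3%), against 9.80% of all regions tested. Every lamb stood below every fetus in 19 (0.222%), against 6.15%. An unadjusted p under 0.05 with the lambs higher was reached by 1859 (21.8%), against 7.15% of all regions, and in either direction by 1862, against 11.3%. The median difference was 10.8 points in the tested fetal-only LMRs and 0.823 points over all regions tested. The rule used this contrast, so nothing is read from these shares or from the p-values of single fetal-only LMRs given below. Without any 1 of the 6 animals the calls among fetal-only LMRs numbered 0. They numbered 5 with a minimum of 3 reads per CpG and 8 with a minimum of 1.

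The called region on chromosome 7 from 99045977 to 99046242 is 266 bases long, with 9 CpGs of which 5 were usable, and lies 109 bases from a UMR. Its level was 23.9%, 26.7% and 20.4% in fetuses 1 to 3 and 79.1%, 80.6% and 80.4% in lambs 1 to 3 (adjusted p = 0.0236 over all regions, limma's moderation). The rule used this contrast, and the call was lost without any 1 of the animals. The lambs were close to the surroundings, where the pooled level was 80.9% in fetal and 82.4% in lamb tissue. Read CpG by CpG over the pooled animals, each of the 9 was higher in lambs. At position 99046131 the fetuses had 4 methylated of 32 reads and the lambs 21 of 31, and at position 99046161 the counts were 5 of 27 and 24 of 28. The smallest gap was at position 99045985, at the edge of the region, with 52.9% and 80%.

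The called region on chromosome 21 from 34496770 to 34496996 is 227 bases long, has 7 CpGs, 6 of them usable, and lies 63305 bases from the nearest UMR. Its level was 14.9%, 33.3% and 26.5% in fetuses 1 to 3 and 77.9%, 82.5% and 69.4% in lambs 1 to 3 (adjusted p = 0.0496 over all regions, limma's moderation). The same limits hold for this call as for that on chromosome 7. The pooled lamb flanks were at 77.6%, below lambs 1 and 2 and above lamb 3. Each of its 7 CpGs was higher in lambs, from 46.2% against 63.3% at position 34496862 to 19.4% against 96.7% at position 34496937. A hyper DMR of the authors overlaps it.

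The 8 fetal-only LMRs with the most usable CpGs, chosen without regard to level, had 14 to 17 usable CpGs and 140 to 209 reads per animal. Since 1 read can count at several CpGs, these counts can overstate the independent reads. The SD between animals was as high as 14.8 points, in the fetuses at the region with the most usable CpGs. Each of the 8 had the higher mean in lambs, by 12.2 to 19.3 points, and in 5 of them the stages did not overlap. Among all tested fetal-only LMRs every lamb stood above every fetus in 26.3%, against 9.80% of all regions tested. The rule used this contrast, so nothing is read from the direction or the count. On chromosome 10 from 86307246 to 86307594, with 20 CpGs and a fetal UMR at 2129 bases, the level was 31.6%, 45.5% and 36.2% in fetuses and 48.9%, 60.7% and 50.5% in lambs. On chromosome 9 from 93847024 to 93847994, with 21 CpGs, it was 43.3%, 47.0% and 36% in fetuses and 66.9%, 55.0% and 55.1% in lambs. In both the lowest lamb stood above the highest fetus, and the lambs stayed below their flanks, which were at 80.1% and 73.1%. On chromosome 19 from 2215752 to 2216372 the fetuses were tight at 36.3%, 35.8% and 37.3%, and the lambs ranged over 42.9%, 47.8% and 57.1%. The region with the most usable CpGs, on chromosome 25 from 30082434 to 30082577, was at 59.2%, 36.6% and 31.4% in fetuses and 54.9%, 64.8% and 65.5% in lambs. There fetus 1 stood above lamb 1, and the flanks were high in both stages, at 96.8% and 93.8%. None of the 8 passed the adjusted threshold over all regions.

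Among fetal-only LMRs with at least 5 usable CpGs and no overlap of the stages, the 8 largest differences ran from 36.6 to 56.3 points with the lambs higher, and the 2 called regions led them. No such region had the lambs lower. The region on chromosome 24 from 24775387 to 24775592, 116 bases from a UMR, came next, at 34.6%, 50% and 41.4% in fetuses and 88.6%, 82.1% and 92.5% in lambs (adjusted p = 0.0924, limma's moderation). On chromosome 6 from 102518847 to 102518978 the fetuses were at 33.3%, 29.7% and 50% and the lambs at 75%, 84.8% and 70.6%. On chromosome 16 from 16869988 to 16870254 the lambs, at 62.5%, 74.5% and 90.2%, stood above their flanks, which were at 58.8%, and the fetuses were at 40%, 43.3% and 27.3%. On chromosome 1 from 2055058 to 2055230, 558 bases from a UMR, the mean was 34.9% ± 8.30 in fetuses and 72.5% ± 11.9 in lambs. On chromosome 25 from 44811271 to 44811566 the means were 42.1% ± 18.4 and 79.3% ± 10.4, and on chromosome 15 from 50447333 to 50447687 they were 29.1% ± 6.58 and 65.7% ± 16.3 (SD, n = 3 each). These were picked for their difference and rest on 39.5 to 59.3 reads per animal.

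The differentially methylated regions (DMRs) that the authors listed from the same animals covered few LMRs of any class. A hyper DMR overlapped 112 fetal-only LMRs (0.352%), against 0.187% of all fetal LMRs and 0.120% of shared LMRs. A hypo DMR overlapped 1, against 0.0636% of all fetal LMRs. The lamb-only LMRs were the mirror of this, with 0 at hyper and 87 (0.332%) at hypo DMRs. The DMRs compare the same stages as the lists, so these counts are a description. Seen from the other side, 109 of 526 autosomal hyper DMRs (20.7%) and 1 of 496 hypo DMRs overlapped a fetal-only LMR. Those at hyper DMRs had a median of 10.5 CpGs against 6 in the rest, and lay closer to UMRs, at a median of 18646 against 55558 bases. Their pooled levels had medians of 35.3% in fetal and 59.1% in lamb tissue, and their dip went from a median of 47.1 points in fetal to 23 points in lamb tissue. The member at a hypo DMR, on chromosome 19 from 59764388 to 59764728, has 5 CpGs, of which 2 were usable. Over all its reads it was at 41.2%, 44.2% and 35.1% in fetuses and 41.2%, 27.3% and 30.8% in lambs, with overlap between the stages.

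At the extremes of size and isolation the data were thin. The longest fetal-only LMR, on chromosome 20 from 2156414 to 2168337, spans 11924 bases with 20 CpGs, and its pooled level was 40.2% in both stages, over 29 to 48 reads per animal. The next, on chromosome 2 from 66376978 to 66388398 and on chromosome 14 from 58648510 to 58659924, had pooled levels of 39.7% and 28.6% in fetal and 52.9% and 45.5% in lamb tissue. The 3 regions farthest from any UMR lie together on chromosome 6 between 74550172 and 74692514, from 1940281 to 1999941 bases away. The farthest, from 74630994 to 74632854, was at 45.5%, 50% and 47.1% in fetuses and 23.3%, 28.6% and 32.4% in lambs. The lambs were lower there without overlap, over 14 to 34 reads per animal at 5 CpGs, although the lamb list does not hold the region.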

How the data were processed

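The authors deposited raw counts of methylated and covering reads per CpG position and animal, whose columns carry the names in the sample descriptions. Mapping was to Oar_v3.1, per the labels' design text. BWA, Picard, Oar_v3.1 and hg19 are listed, with no roles, per the submitters' processing notes. How methylation and the region lists were called and filtered was not given in the sources used here. Members and lists were chosen with earlier results of these data known. BED starts were read as 0-based and distances run edge to edge. Exact tests permuted the animals of the stages, or flipped signs over the 6 animals. The quasi-binomial test used limma's squeezeVar (prior dispersion 1.43 on 8.99 degrees of freedom, dispersion not below 1) with Benjamini-Hochberg adjustment over the 78994 regions, and was tested on simulated data. Regions were named when called, as the 8 with the most usable CpGs, as up to 8 with the largest positive and 4 with the largest negative differences without overlap, as the 3 longest and the 3 farthest from a UMR, and when at a hypo DMR. P-values measure only the spread between these animals, and comparisons of the lists themselves have no replicate. The tests planned on shared LMRs near fetal-only ones are given as values only, since the lists used their levels. Gene lists and sequences, planned for an annotation and genome of Oar_v3.1, were not analysed here. Alternatives were other read minimums, overlap rules, distances and tools, a replicate block, and leaving out each animal. Python 3.11.15, numpy 2.4.6, pandas 2.3.3, scipy 1.17.1, R 4.3.3, limma 3.58.1 and edgeR 4.0.16 were used.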

Additional observations from a re-analysis of the deposited data

How the results depend on the processing

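With minimums of 1 and 10 reads per CpG the dip differed by -11.1 and -4.43 points between lamb and fetal animals, against -9.94 at 5 reads. The level inside differed by 5.05 points at 10 reads and by 8.13 points with 50% reciprocal overlap. At 10 reads the flank level of fetal-only minus shared LMRs reversed to 2.43 points (exact sign-flip permutation p = 0.0313), and the cause was not tested. Without 1 animal this difference ran from -0.641 to -0.580 points and that of relative coverage from -0.143 to -0.123, each with p = 0.0625, the smallest that an exact permutation over 5 animals allows. The median distance to a UMR was 46933 bases with 50% reciprocal overlap, 50701 to UMRs of either list and 57102 between centres. The 2 calls became 8 with at least 1 read, 5 with at least 3 and 0 with at least 10 (over 26 members tested), 0 with limma on log2 ratios, where 1953 had an unadjusted p under 0.05 against 1862 before, 3 with edgeR, and 0 without any 1 of the animals. With the replicate number as a block, calls numbered 0 (1387 unadjusted), and the exact sign-flip permutation p over 3 pairs was 0.5 for the flank level and 0.25, the smallest possible, for relative coverage. Deviations of same-numbered animals correlated by -0.000421, 0.00752 and 0.00332, which does not pair them. The bases held by both lists were chosen as an alternative after seeing the data. The other alternatives of the tests reported kept direction and side of the threshold.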

Other observations

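The X chromosome was left out of every comparison, since sex is not in the labels. There, 2473 of 5653 fetal LMRs (43.7%) shared no base with a lamb LMR or UMR, against 29.4% on the autosomes. Over 3935 CpGs with at least 5 reads in each animal, their level was 39.9%, 41.1% and 40.3% in fetuses 1 to 3 and 47.4%, 49.6% and 47.7% in lambs 1 to 3. The other fetal LMRs of the X chromosome were at 33.6%, 33.9% and 32.6% in fetuses and 35.2%, 36.4% and 35.1% in lambs.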
